A study of Mus musculus with 15 samples.

Results

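*Cyp17a1* and 9 genes named for steroid-converting enzymes were followed in RNA-seq of mouse endometrial epithelial organoids, which are small bodies that uterine epithelial cells form when grown in Matrigel. The 10 genes are *Cyp17a1*, *Hsd17b1*, *Hsd17b2*, *Hsd17b4*, *Hsd17b7*, *Hsd17b10*, *Hsd17b11*, *Hsd17b12*, *Srd5a1* and *Srd5a3*. They were selected by name, through the Ensembl identifiers of the expression table, and all 10 were found among its 16729 genes. The names had been chosen on earlier results of these same samples, and *Cyp17a1* heads the list, so its levels are given as a description with no test. The other 9 were tested in fits over all genes, and no support is drawn from their being on the list.

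Both genotypes carried floxed alleles of *Smad2* and *Smad3* (Smad2flox/flox; Smad3flox/flox). Control mice had no Cre, whereas *Smad2/3* cKO mice also carried Ltfcre/+, in which Cre is expressed from the lactoferrin gene and acts in the uterine epithelium once estradiol has induced it. Organoids were grown with DMSO as the vehicle or with A83-01, which inhibits the kinases of the TGFβ and activin receptors ALK4, ALK5 and ALK7 and so the phosphorylation of SMAD2 and SMAD3. This gave 3 samples of control + vehicle and 4 samples each of control + A83-01, of *Smad2/3* cKO (with vehicle) and of *Smad2/3* cKO + A83-01. Per the study's methods, mice were adults of 6 to 8 weeks except where another age is given, and none is given for the mice behind these organoids. The study asked which pathways of the epithelium change when SMAD2/3 signaling is blocked by the inhibitor or by gene deletion.

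The normalized counts, which are estimated reads per gene scaled between samples, summed to 20241771 to 24423127 per sample. Epithelial markers were high in all 15 samples, with *Epcam* at 19889 to 28844. The cKO library of replicate 2 had the highest *Lyz2* (3372) and *Adgre1* (351) of the series, which are macrophage genes. The leukocyte genes *Cd68* (3258) and *Ptprc* (309) were not highest there, with up to 8115 and 514 in other samples. *Smad2* counted over the whole gene was 1045 to 1335 in control + vehicle and 821 to 924 in *Smad2/3* cKO, while *Smad3* overlapped, at 1532 to 1741 and 1170 to 1977. *Smad2* was 912 to 1062 in control + A83-01 and 804 to 1211 in *Smad2/3* cKO + A83-01. Both ranges overlapped with those of control + vehicle and of *Smad2/3* cKO. The deleted exons cannot be told apart in these values, so this check of the deletion is partial.

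Steroid hormones are made from cholesterol by cytochrome P450 enzymes and hydroxysteroid dehydrogenases, mainly in the ovary, testis, adrenal and placenta. CYP17A1 turns pregnane steroids into hydroxylated glucocorticoid precursors and, by a lyase step, into androgens. Enzymes of the 17β-hydroxysteroid dehydrogenase family then switch a keto group and a hydroxyl group at the same carbon, which makes estrogens and androgens potent or weak, and steroid reductases convert testosterone to dihydrotestosterone. In the uterus such conversion sets how much active hormone reaches a receptor. Several family members are named for this activity but act mostly on other substrates, such as acyl-CoA, polyprenol or sterol intermediates.

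*Cyp17a1* (ENSMUSG00000003555, GRCm38 chr19:46667165-46673172, minus strand) was listed at 0 in every control + vehicle sample and above 0 in every sample of the other groups. In control + A83-01 the normalized counts were 25.1, 17.6, 34.5 and 68.2 in replicates 1 to 4. In *Smad2/3* cKO they were 124, 85.7, 60.4 and 273. In *Smad2/3* cKO + A83-01 they were 215, 162, 105 and 199. The groups with vehicle and with A83-01 therefore did not overlap in control organoids, and the 8 samples from cKO mice were above all control + vehicle samples. Of all genes tested, 21.7% did not overlap for A83-01 in control organoids and 30.8% for *Smad2/3* cKO against control + vehicle. For *Smad2/3* cKO + A83-01 against control + vehicle this share was not counted.

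Above control + vehicle, the group means stood in order from 36.3 ± 22.3 in control + A83-01 through 136 ± 95.3 in *Smad2/3* cKO to 170 ± 49.1 in *Smad2/3* cKO + A83-01 (SD, n = 4 each). Control + A83-01 and *Smad2/3* cKO were neighbours that overlapped, because the highest control + A83-01 sample (68.2) exceeded the lowest cKO sample (60.4). The cKO groups with and without A83-01 also overlapped, with a difference of 0.51 ± 0.44 (SE) on the log2 scale. Control + A83-01 and *Smad2/3* cKO + A83-01 did not overlap, and the difference was 2.32 ± 0.44 on that scale. Of all genes tested, 6.12% did not overlap between these groups. All log2 values are differences of log2(normalized count + 1), which understates changes of low genes.

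No fold is given against control + vehicle, where the gene is listed at 0. The 10 genes used by every cell that were checked had no value below 379.8 in any sample. *Cyp17a1* passed the filter of a mean of at least 10 in the comparisons with control + vehicle only through the group in which it is high. Per kilobase of exon, its mean level was 13.1 in control + A83-01 and 61.5 in *Smad2/3* cKO + A83-01. The cKO sample with the high *Lyz2* and *Adgre1* had a *Cyp17a1* value of 85.7, and the other cKO samples had 124, 60.4 and 273.

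**Figure D1:**
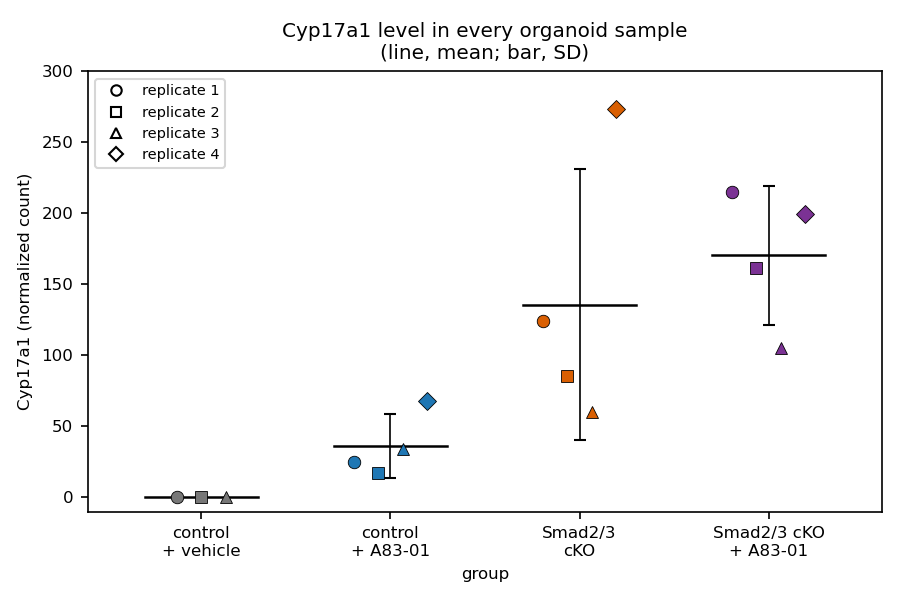
*Cyp17a1* as normalized count (vertical axis) in each organoid sample of the 4 groups (horizontal axis), with 1 point per sample shaped by replicate number, the group mean as a line and the SD as a bar. All 3 control + vehicle samples lie at 0, the control + A83-01 samples between 17.6 and 68.2, and the cKO samples with and without A83-01 between 60.4 and 273.

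Marker genes of gonadal and adrenal steroid-making cells were low in the same samples. Of 7 such genes, 4 were in the table, and their summed level was 23.6 to 48.0 in control + vehicle and 29.6 to 49.9 with A83-01. In *Smad2/3* cKO it was 35.2 to 72.0, and 24.8 to 95.6 with A83-01. *Nr5a1*, the defining transcription factor of those cells, was at 0 in 11 of 15 samples and at most 3.23. *Cyp11a1*, which makes pregnenolone from cholesterol, did not exceed 20.2, and *Star*, which delivers cholesterol to it, was 12.9 to 89.0.

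The sums of other marker lists moved with the groups, but the genes of a list did not all follow its sum. The summed level of 4 leukocyte markers out of 5 listed, mostly *Cd68*, was 1257 to 2554 in control + vehicle and 3165 to 8350 with A83-01, and 1950 to 7289 in *Smad2/3* cKO and 3839 to 7531 with A83-01. The sum of 8 stromal and muscle markers was 86.9 to 277, 25.3 to 74.2, 13.4 to 31.6 and 20.4 to 138 in the same order. The sum of 6 epithelial markers was 240842 to 309429, 153452 to 265255, 121653 to 228701 and 120018 to 185979. *Epcam* did not follow that sum, with group means of 23268, 25458, 24265 and 24536. From control + vehicle to control + A83-01 the means of *Cd68* (1857 to 5330) and *Ptprc* (22.8 to 168) rose. Those of *Lyz2* (55.4 to 8.09) and *Adgre1* (3.32 to 2.49) fell. The part of these markers in the *Cyp17a1* levels was not tested. In bulk samples, more cells of a type and more RNA per cell cannot be told apart.

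Numbers in the sample descriptions fall into a series below 390 and a series at or above it. Among the samples below 390, *Cyp17a1* was 0 in the control + vehicle pair, 17.6 and 25.1 in the control + A83-01 pair and 85.7 and 124 in the cKO pair. At or above 390 it was 0 in 1 control + vehicle sample, 34.5 and 68.2 in control + A83-01 and 60.4 and 273 in cKO. All *Smad2/3* cKO + A83-01 samples were below 390.

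The genes whose profile over the 15 samples was most like that of *Cyp17a1*, among 13065 genes ranked by Pearson r of log2(normalized count + 1), were *Tshr* (0.985), *Hsd11b1* (0.980), *Ghr* (0.978), *Car4* (0.976) and *Gjb1* (0.973). These points share libraries and fall into groups, so r is a description only. *Tshr*, the thyrotropin receptor, was 37.0 to 47.1 in control + vehicle, 1305 to 2451 in control + A83-01 and 2897 to 5410 in the cKO groups. *Ghr*, the growth hormone receptor, was 2980 to 3173 in control + vehicle and 5984 to 9122 in control + A83-01. *Car4*, a carbonic anhydrase, was at most 1.78 in control + vehicle and at least 452 elsewhere, and the connexin gene *Gjb1* was 170 to 281 and at least 1903.

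None of the other 9 genes passed the thresholds in any comparison, which were an adjusted p (Benjamini-Hochberg, over all genes in the limma fit) under 0.01 together with a change of over 1.4 times in either direction. *Hsd17b1* was under the filter everywhere, so 8 were tested. For A83-01 in control organoids 0 of 8 passed, against 2.27% of the 13009 genes tested, and 2 had an unadjusted p below 0.05. For *Smad2/3* cKO against control + vehicle 0 of 8 passed, against 7.38% of 13149 genes, and 3 had an unadjusted p below 0.05. For A83-01 in cKO organoids 0 of 8 passed, where 0% of 12998 genes did, and 0 of the 8 had an unadjusted p below 0.05. For *Smad2/3* cKO + A83-01 against control + A83-01 the count was 0 of 8, against 0.0232% of 12915 genes, and 1 had an unadjusted p below 0.05. The effect of A83-01 differed between genotypes for 0 of 8, against 0.551% of 13066 genes, with 0 at an unadjusted p below 0.05. These comparisons share groups, so they are not independent of each other.

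Counted by overlap alone, 1 of the 8 had groups that did not overlap for A83-01 in control organoids, where 21.7% of all genes tested did not. For *Smad2/3* cKO against control + vehicle it was 2 of 8, against 30.8%. Between the cKO groups it was 0 of 8, against 2.90%, and between the A83-01 groups 0 of 8, against 6.12%.

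**Figure D2:**
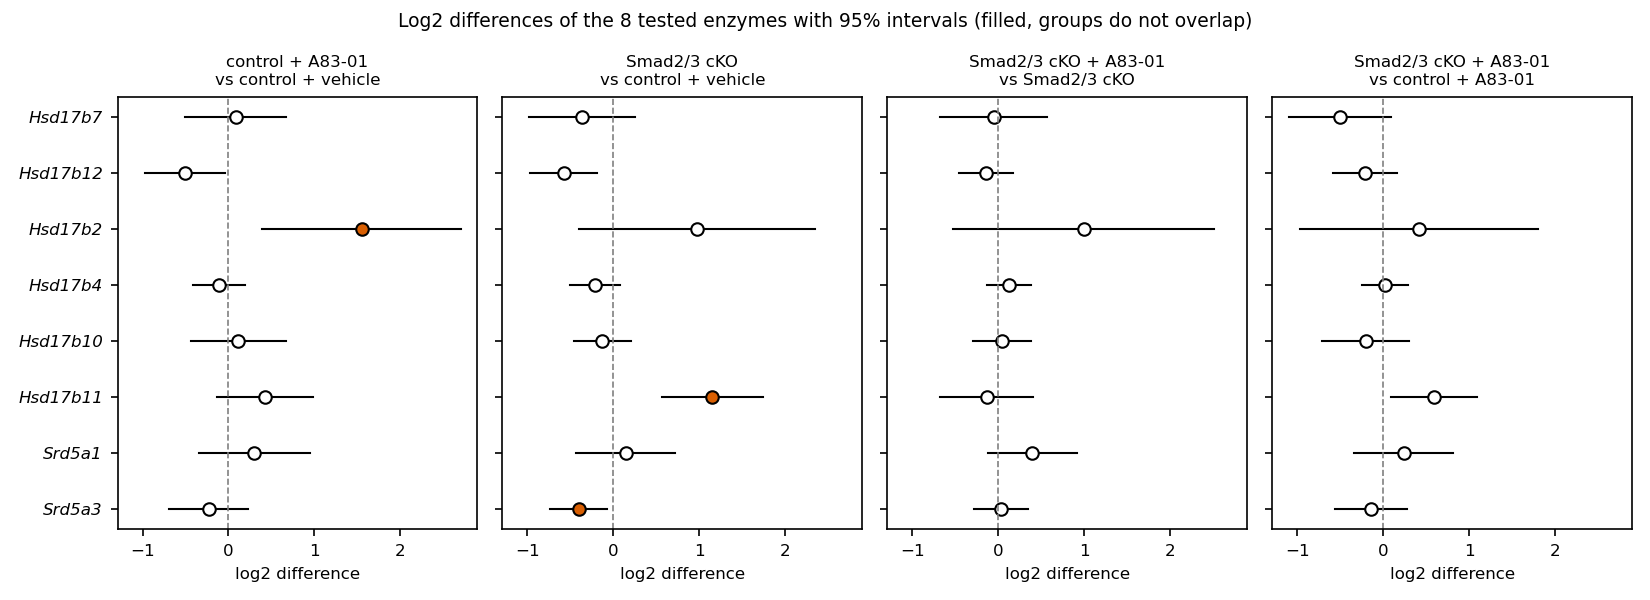
Log2 differences (horizontal axis, log2 of normalized count + 1) of the 8 tested enzymes (vertical axis) in 4 comparisons, with points for the limma estimate, lines for its 95% interval and filled points where the samples of the groups did not overlap. The filled points are *Hsd17b2* for A83-01 in control organoids (1.55), and *Hsd17b11* (1.16) and *Srd5a3* (-0.40) for *Smad2/3* cKO against control + vehicle.

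Among the enzymes that reduce at carbon 17, *Hsd17b1*, which makes estradiol from estrone in the ovary, was near the lower limit of the data. Its normalized counts ran from 0 to 6.84 over all samples and were 0 in 5 of them, and no fold is given. *Hsd17b7*, which makes estradiol and also reduces a sterol intermediate of cholesterol synthesis, was 1285, 1541 and 870 in control + vehicle and 1448, 1480, 1418 and 865 in control + A83-01. It was 1183, 681, 1253 and 750 in *Smad2/3* cKO and 1156, 1240, 744 and 610 in *Smad2/3* cKO + A83-01. The ranges of all 4 groups overlapped.

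*Hsd17b12* (GRCm38 chr2:94032689-94157964, minus strand) encodes the ketoacyl-CoA reductase of long-chain fatty acid elongation and can also reduce estrone. It was 3515, 4020 and 2753 in control + vehicle. In control + A83-01 it was 2586, 2905, 2390 and 1806. In *Smad2/3* cKO it was 2774, 2378, 1968 and 2049, and in *Smad2/3* cKO + A83-01 it was 2402, 1977, 1894 and 2000. The lowest control + vehicle sample (2753) lay just under the highest cKO sample (2774), so the groups overlapped by that pair of samples. The cKO against control + vehicle difference was -0.58 ± 0.17 (SE) on the log2 scale, with an adjusted p of 0.0473 in limma, which missed the threshold. All 4 *Smad2/3* cKO + A83-01 samples were under all control + vehicle samples, a pair of groups that was not tested. How many of all genes do not overlap in that pair was not counted, so the separation is a description only.

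Among the enzymes that oxidise at carbon 17, *Hsd17b2*, which turns estradiol into estrone and testosterone into androstenedione and is induced by progesterone in human endometrium, was low. It was 34.1, 28.4 and 40.0 in control + vehicle and 86.5, 44.0, 178 and 153 in control + A83-01. It was 24.2, 50.7, 104 and 160 in *Smad2/3* cKO and 79.7, 70.7, 136 and 438 in *Smad2/3* cKO + A83-01. All control + A83-01 samples were above all control + vehicle samples, while the cKO samples spanned both. The A83-01 difference in control organoids was 1.55 ± 0.51 (SE), from 0.40 to 2.71 as the 95% interval, with an adjusted p of 0.108 in an unpaired limma fit. Alternative settings apart from the left-out samples gave 1.35 to 1.75 (adjusted p of 0.0706 to 0.165). They include the replicate block, in which control + A83-01 replicate 4 has no partner and does not inform the difference. The same difference in cKO organoids was 1.00 ± 0.68, from -0.53 to 2.52, with an adjusted p of 0.994. It ran from 0.43 (without *Smad2/3* cKO + A83-01 replicate 4) to 1.41 (without cKO replicate 4) when a sample was left out, and it was 1.92 with the number series as a covariate. The difference between genotypes was -0.56 ± 0.94, with an adjusted p of 0.861, and it turned to 0.31 with the number series of the sample descriptions as a covariate.

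*Hsd17b4*, the peroxisomal multifunctional enzyme of β-oxidation, and *Hsd17b10*, a mitochondrial dehydrogenase that is also a subunit of the enzyme that matures mitochondrial tRNA, had no group that stood apart. *Hsd17b4* was 2643 to 3220 in control + vehicle and 2603 to 2731 with A83-01, and 2229 to 2708 in *Smad2/3* cKO and 2440 to 3020 with A83-01. Its 95% intervals of the log2 difference lay within -0.50 to 0.38 in the 4 comparisons of groups. *Hsd17b10* was 2340 to 3127, 2369 to 4478, 2301 to 2898 and 2218 to 3270 in the same order. The single high value of 4478 was control + A83-01 replicate 1.

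*Hsd17b11* (GRCm38 chr5:103989762-104021919, minus strand) encodes a dehydrogenase of lipid droplets that can oxidise androstanediol. It was 876, 705 and 593 in control + vehicle and 1121, 1284, 846 and 698 in control + A83-01. In *Smad2/3* cKO it was 2263, 1912, 1047 and 1429, and in *Smad2/3* cKO + A83-01 it was 1694, 1733, 1125 and 1346. All 8 samples from cKO mice were above all control + vehicle samples, and the control + A83-01 samples lay on both sides of the gap. Of all genes tested, 30.8% did not overlap between *Smad2/3* cKO and control + vehicle. For *Smad2/3* cKO + A83-01 against control + vehicle this share was not counted. The cKO against control + vehicle difference was 1.16 ± 0.26 (SE), from 0.56 to 1.75 as the 95% interval, and the adjusted p of 0.0163 in limma missed the threshold. Without cKO replicate 3, the lowest of its group, the difference was 1.36 with an adjusted p of 0.00522, which passed. With the number series as a covariate it was 1.26 with an adjusted p of 0.00319, and with all 4 groups in the fit it was 1.16 with an adjusted p of 0.00743. Every other alternative missed the threshold, with an adjusted p up to 0.0570 with a sample left out and up to 0.0422 otherwise. Below 390 the means were 791 in control + vehicle and 2088 in cKO, and at or above 390 they were 593 and 1238.

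The difference of *Hsd17b11* for A83-01 in control organoids was 0.42 ± 0.25 (SE), from -0.14 to 0.98, with an adjusted p of 0.368 in an unpaired limma fit. Alternative settings apart from the left-out samples gave a difference of 0.42 to 0.58 (adjusted p of 0.0774 to 0.422). They include the replicate block, in which control + A83-01 replicate 4 has no partner and does not inform the difference. Between *Smad2/3* cKO + A83-01 and control + A83-01 it was 0.60 ± 0.22, from 0.10 to 1.10, with an adjusted p of 0.429. Between the cKO groups the samples overlapped. The difference of the A83-01 effects between genotypes was -0.56 ± 0.37, with an adjusted p of 0.556.

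*Srd5a1*, the steroid reductase that makes dihydrotestosterone from testosterone in female tissues, had the highest level of the 10 genes per kilobase of exon. It was 8726, 5310 and 5138 in control + vehicle, 7525, 5033, 8261 and 10978 in control + A83-01, 5641, 5206, 8821 and 8484 in *Smad2/3* cKO and 6809, 7640, 12287 and 10365 in *Smad2/3* cKO + A83-01. The groups overlapped throughout, and the interval for A83-01 in cKO organoids ran from -0.12 to 0.92 on the log2 scale. *Srd5a1* shares exon sequence on its own strand with the predicted gene *Gm17108*, so reads of these genes cannot be fully told apart.

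*Srd5a3*, which despite its name mainly reduces polyprenol to dolichol for protein glycosylation, was 870, 718 and 816 in control + vehicle and 852, 664, 520 and 730 in control + A83-01. It was 587, 680, 603 and 552 in *Smad2/3* cKO and 550, 731, 627 and 578 in *Smad2/3* cKO + A83-01. All cKO samples were under all control + vehicle samples, by a gap from 680 to 718. The difference was -0.40 ± 0.15 (SE), with an adjusted p of 0.0900 in limma, which missed the threshold.

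**Figure D3:**
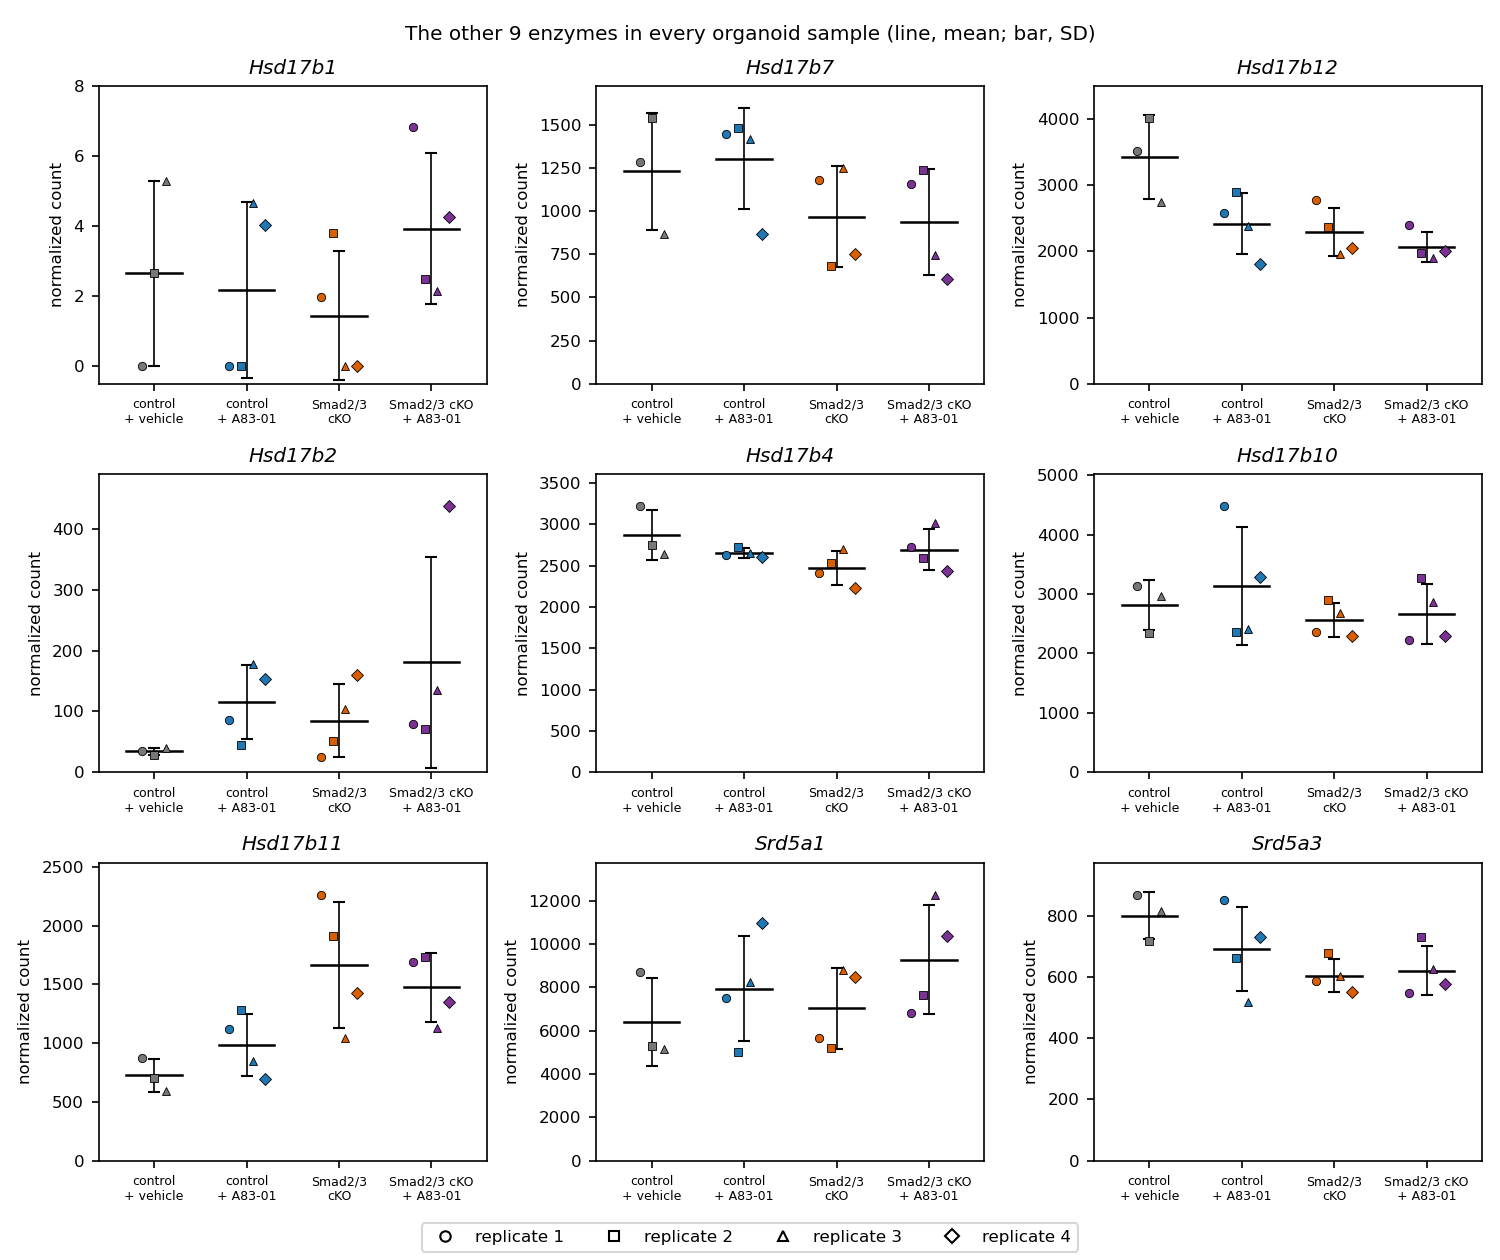
Normalized counts (vertical axes, each from its own scale) of the 9 other enzymes in every sample of the 4 groups (horizontal axes), with points shaped by replicate number, lines for group means and bars for SD. *Hsd17b11* reached 2263 in *Smad2/3* cKO against at most 876 in control + vehicle, *Hsd17b12* was 2753 to 4020 in control + vehicle, and *Hsd17b1* did not exceed 6.84.

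Per kilobase of exon the group means ranged from 2197 to 3188 for *Srd5a1*, 1973 to 2417 for *Hsd17b10*, 859 to 1425 for *Hsd17b12* and 726 to 844 for *Hsd17b4*. *Hsd17b11* followed with 222 to 509, *Hsd17b7* with 184 to 255 and *Srd5a3* with 130 to 172. *Hsd17b2* had 17.7 to 94.1, *Cyp17a1* 0 to 61.5 and *Hsd17b1* 1.08 to 2.94. The neighbours *Srd5a1* and *Hsd17b10*, and likewise *Hsd17b11* and *Hsd17b7*, overlapped in the ranges of their group means, as did *Cyp17a1* with *Hsd17b2* and with *Hsd17b1*.

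Promoter sequence was at hand from RefSeq (GRCm38.p6) for 6 of the 10 genes. The bases before the start are shown for *Hsd17b11* and *Hsd17b12*, which had the lowest adjusted p among the tested enzymes in *Smad2/3* cKO, and for *Akr1c18*, a steroid enzyme that changed in both comparisons with control + vehicle. They are written 5′ to 3′ on the minus strand, leave out bases inside the annotated gene, and have the SMAD-binding letters CAGAC or their reverse complement GTCTG in capitals.
Hsd17b11, chr5:104021920-104022046: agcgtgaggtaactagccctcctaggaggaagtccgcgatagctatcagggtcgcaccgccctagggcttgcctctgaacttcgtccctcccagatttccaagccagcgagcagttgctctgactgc
Hsd17b12, chr2:94157965-94158159: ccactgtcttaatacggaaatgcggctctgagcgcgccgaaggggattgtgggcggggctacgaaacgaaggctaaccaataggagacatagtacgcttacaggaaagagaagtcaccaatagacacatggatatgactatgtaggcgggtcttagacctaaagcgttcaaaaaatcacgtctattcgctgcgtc
Akr1c18, chr13:4150655-4150896: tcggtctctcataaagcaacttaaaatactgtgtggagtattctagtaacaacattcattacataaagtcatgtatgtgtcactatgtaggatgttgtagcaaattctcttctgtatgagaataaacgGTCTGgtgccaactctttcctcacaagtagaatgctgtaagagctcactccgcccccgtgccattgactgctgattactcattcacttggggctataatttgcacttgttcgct

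The letters CAGAC on either strand were found in 42.2% of all 32851 RefSeq windows of 250 bases before a start. Among the 6 enzymes with an entry they occurred in *Hsd17b7* and *Srd5a1*, and not in the windows of *Hsd17b11*, *Hsd17b12*, *Hsd17b10* and *Srd5a3*. Of 5 further steroid genes with an entry that passed the thresholds, described below, *Akr1c18* and *Akr1c13* had them. *Hsd11b1*, *H6pd* and *Stard3* did not. The nuclear receptor letters AGGTCA or TGACCT were in 14.0% of all windows. They were in none of the 6 enzymes, and of the further steroid genes only in *H6pd*. The counts use all 250 bases before a RefSeq start, also those inside the gene as annotated by GENCODE M21. The windows of *H6pd* and *Hsd11b1* lie wholly inside the annotated gene. A match or its lack describes the letters in these windows only.

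Of 46 further genes of steroid hormone synthesis and conversion, 26 were in the table and the others were not analysed here. For A83-01 in control organoids 2 of 23 tested passed upwards and 1 downwards, and for *Smad2/3* cKO against control + vehicle 4 of 21 rose and 2 fell. Over all genes tested, 2.27% and 7.38% passed in these comparisons. In both comparisons with *Smad2/3* cKO + A83-01 the counts were 0 of 21, where 0% and 0.0232% of all genes passed. The list's median log2 difference was 0.29 for A83-01 in control organoids, where it was -0.02 over all genes, and 0.12 for cKO, where it was 0.00. With the replicate number as a block, by which the control samples are paired, 5 steroid genes passed for A83-01 in control organoids, *Akr1c13* (-1.64, adjusted p = 0.00948) and *Cyp1b1* (-5.31, adjusted p = 0.00410) in addition to the 3, by limma. *Cyp1b1* passed the filter of a mean of at least 10 only through control + vehicle (448, against 6.40 in control + A83-01). The same holds for *Cyp21a1*, described below, so both calls are a description. The block also raised the calls over all 13009 genes tested from 295 to 399 (3.07%). Without control + A83-01 replicate 2 the count was also 5, and for cKO it was 3 in place of 6 without control + vehicle replicate 2.

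*Hsd11b1* encodes the dehydrogenase that regenerates active glucocorticoid from its keto form. It was 71.8, 116 and 186 in control + vehicle and 5309, 5072, 13198 and 18598 in control + A83-01. It was 18061, 16807, 12351 and 35519 in *Smad2/3* cKO and 27491, 15593, 16821 and 35179 in *Smad2/3* cKO + A83-01. Every sample of the last 3 groups was far above control + vehicle. The difference was 6.27 ± 0.50 (SE) for A83-01 in control organoids (adjusted p = 0.000354) and 7.35 ± 0.39 for cKO (adjusted p = 3.12e-05) in limma. The effect of A83-01 in cKO organoids was smaller than in control organoids by 6.04 on the log2 scale (interaction -6.04, adjusted p = 0.000228).

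*H6pd*, which makes the NADPH that HSD11B1 uses in the endoplasmic reticulum, was 10932 to 14944 in control + vehicle and 16900 to 20713 with A83-01. It was 22760 to 26173 in *Smad2/3* cKO, and 23834 to 33696 with A83-01. The last 3 groups did not overlap with control + vehicle. Of all genes tested, 21.7% did not overlap for A83-01 in control organoids and 30.8% for cKO. For *Smad2/3* cKO + A83-01 against control + vehicle this share was not counted. The *H6pd* difference for A83-01 in control organoids was 0.58 ± 0.17 (adjusted p = 0.0814, limma), which missed the threshold. The cKO difference was 1.00 ± 0.15 (adjusted p = 0.00352, limma), and it missed the threshold in 4 of the 7 fits that left out a sample, with adjusted p = 0.0183 without control + vehicle replicate 1, 0.0172 without control + vehicle replicate 2, 0.0105 without cKO replicate 1 and 0.0119 without cKO replicate 4. *Hsd11b2*, the enzyme of the opposite direction, was 9.76 to 15.2 in control + vehicle and at most 3.79 in all other samples. It was under the filter in every comparison and was not tested.

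*Akr1c18*, whose enzyme inactivates progesterone by reducing it at carbon 20, was 4650, 4247 and 5452 in control + vehicle and 76600, 64012, 122655 and 158226 in control + A83-01. It was 95623 to 147087 in *Smad2/3* cKO, and 82169 to 137939 with A83-01. The difference was 4.38 ± 0.31 (SE) for A83-01 in control organoids (adjusted p = 0.000200) and 4.57 ± 0.19 for cKO (adjusted p = 1.19e-05) in limma. The interaction was -4.31 (adjusted p = 4.62e-05). Its relative *Akr1c13* was 1401 to 1699 in control + vehicle and 559 to 792 in cKO, a difference of -1.24 ± 0.16 (adjusted p = 0.00164), which was lost without control + vehicle replicate 2 (adjusted p = 0.0111). *Akr1c* genes are near copies of each other, so reads may be split among them and each value is uncertain.

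*Cyp21a1*, the 21-hydroxylase of corticosteroid synthesis, acts on progesterone and on a product of CYP17A1. It was 202, 196 and 278 in control + vehicle, at most 8.51 in control + A83-01, at most 20.5 in *Smad2/3* cKO and at most 2.67 in *Smad2/3* cKO + A83-01. Its order of levels was thus the opposite of that of *Cyp17a1* between control + vehicle and the other groups. The differences were -6.57 ± 0.85 (adjusted p = 0.00316) and -5.32 ± 0.97 (adjusted p = 0.00655) in limma for A83-01 in control organoids and for cKO, and both calls were lost without any 1 control + vehicle sample (adjusted p from 0.0174 to 0.0228 and from 0.0229 to 0.0309), and the cKO call also without cKO replicate 4 (0.0189). *Cyp21a1* passed the filter of a mean of at least 10 only through control + vehicle. Its mean was 225 there, against 2.67 in control + A83-01 and 8.84 in cKO. These calls are therefore a description, and no support is drawn from them. The gene has a near copy and its exons overlap *Tnxa* on the other strand, so its reads are uncertain. *Stard3*, which moves cholesterol at late endosomes, was 1408 to 1613 in control + vehicle and 3292 to 3816 in cKO, a difference of 1.24 ± 0.12 (adjusted p = 0.000403, limma).

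**Figure D4:**
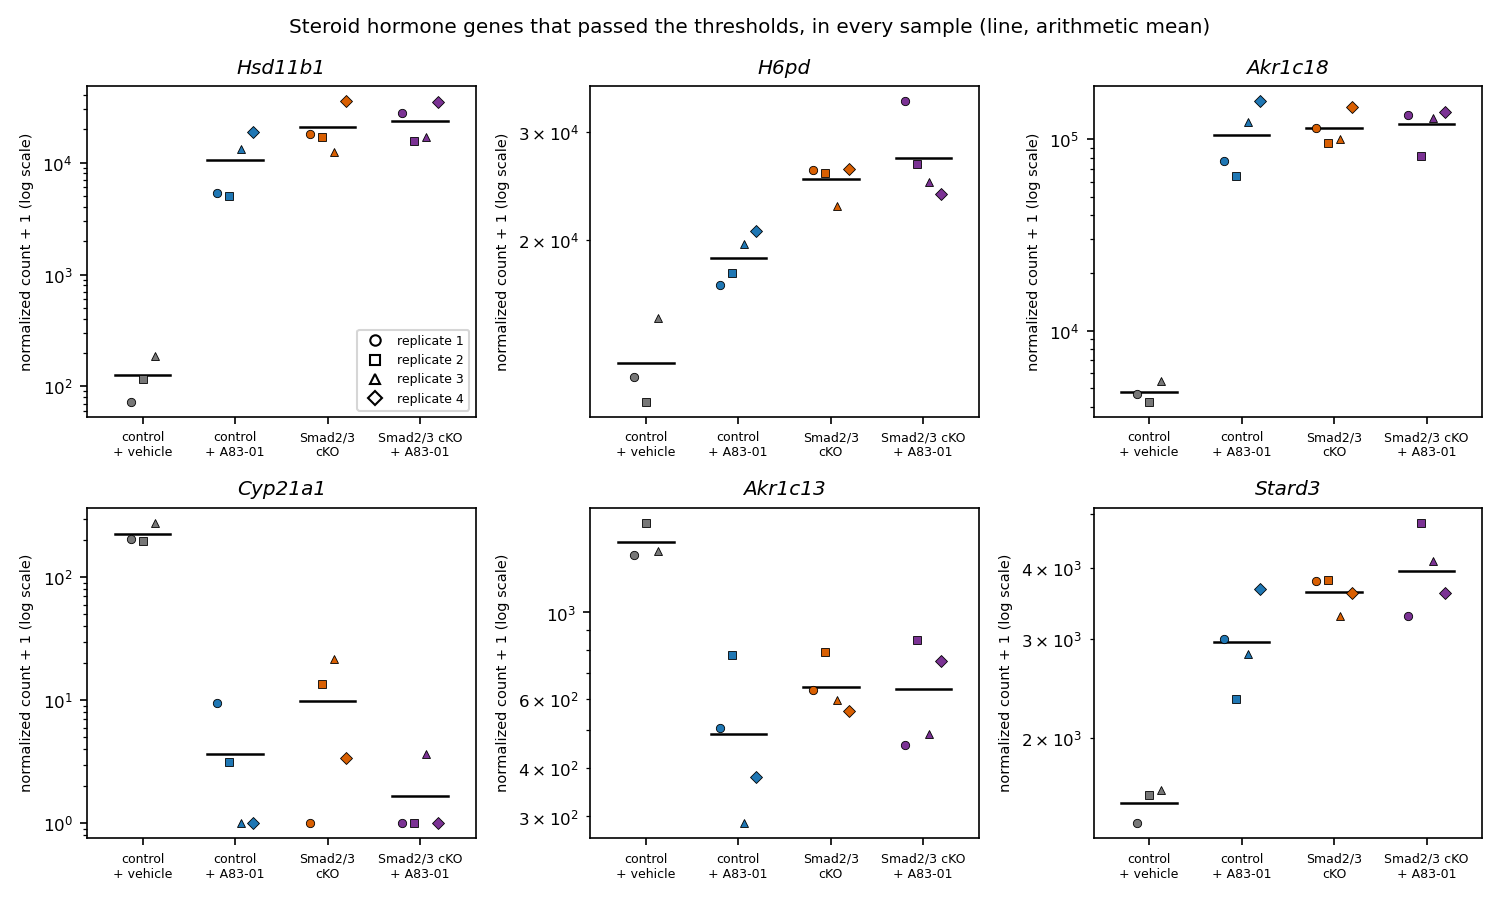
Normalized count + 1 on log axes (vertical) of 6 steroid hormone genes that passed the thresholds, in each sample of the 4 groups (horizontal), with points shaped by replicate number and lines for arithmetic means. *Hsd11b1* was at most 186 and *Akr1c18* at most 5452 in control + vehicle, against at least 5072 and 64012 in all other groups, while *Cyp21a1* was at least 196 in control + vehicle and at most 20.5 elsewhere.

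The pathways in which the other enzymes also work were read from further lists. Over all genes tested, 2.27% passed for A83-01 in control organoids (3.07% with the replicate block) and 7.38% for cKO against control + vehicle. In the other comparisons at most 0.551% passed. Of 18 cholesterol synthesis genes (beside *Hsd17b7*) and 6 dolichol synthesis genes (beside *Srd5a3*), all tested, 0 passed in any comparison as fitted. Of 10 fatty acid elongation genes tested (beside *Hsd17b12*), 0 passed in the same fits, and 1 with the replicate block for A83-01 in control organoids, *Elovl2* (5.29, adjusted p = 0.00402, limma). *Elovl2* was 0, 6.23 and 19.6 in control + vehicle. It passed the filter of a mean of at least 10 only through control + A83-01, so its call is a description.

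Of 10 peroxisomal β-oxidation genes (beside *Hsd17b4*), the thiolase gene *Acaa1b* rose for A83-01 in control organoids and for cKO. Over all genes tested, 2.27% and 7.38% passed in these comparisons. It was 13.2 to 58.8 in control + vehicle, 191 to 484 in control + A83-01 and 364 to 855 in cKO. Its differences were 3.48 ± 0.52 (adjusted p = 0.00572) and 4.49 ± 0.49 (adjusted p = 0.000751) by limma, the first of which was lost in 5 of the 7 fits that left out a sample (control + A83-01 replicates 1, 3 and 4 and control + vehicle replicates 1 and 2, adjusted p up to 0.0339). *Acaa1b* has a near copy in *Acaa1a*, so its reads are uncertain.

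Of 4 mitochondrial genes (beside *Hsd17b10*), *Acadsb*, an acyl-CoA dehydrogenase of isoleucine breakdown, rose in cKO, from 693 to 820 in control + vehicle to 1427 to 2073 (1.24 ± 0.16, adjusted p = 0.00140, limma). Over all genes tested, 7.38% passed for cKO against control + vehicle. Of 8 lipid droplet genes (beside *Hsd17b11*), *Cidea*, which enlarges droplets, rose in cKO by 2.59 ± 0.51 (adjusted p = 0.00935). *Dgat2*, which makes triglyceride, fell, from 5769 to 11916 in control + vehicle to 818 to 2659 in cKO (-2.47 ± 0.43, adjusted p = 0.00549, limma). The *Cidea* call was lost in 6 of the 7 fits that left out a sample (all but control + vehicle replicate 3, adjusted p up to 0.0437) and the *Dgat2* call in 3 of 7 (control + vehicle replicates 1 and 2 and cKO replicate 1, up to 0.0302). With the replicate block, *Cidea* (2.22, adjusted p = 0.00893) rose and *Plin2* (-1.66, adjusted p = 0.00356), a droplet coat gene, fell for A83-01 in control organoids, where 0 of the 8 passed in the fit without it. Over all genes tested, 3.07% passed with the block and 2.27% without it.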

How the data were processed

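Total RNA of endometrial organoids was sequenced by the authors after library preparation with a low-input kit that does not mark strand. Per the submitters' processing notes, Salmon 1.4.0, DESeq2 1.32.0 and GRCm39 were used. The deposited values (signal) are estimated counts scaled between samples: the median ratio to the geometric mean over 12745 genes was 1.01137 in every sample. This check cannot tell whether the scaling of a sample was the same for every gene. Whole reads were not recovered, since 5.11% to 13.0% of values below 12 lay within 0.01 of whole multiples of the best step, so the read depth is unknown and no counting interval is given. All 15 columns matched a sample label.

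Genes whose mean reached 10 over the samples of a comparison were tested with limma 3.58.1 (lmFit, eBayes with trend) in R 4.3.3 on log2(normalized count + 1), each pair of groups on its own samples and the interaction in 1 fit of all 15. p-values were adjusted over all genes tested (Benjamini-Hochberg), and the thresholds were those of the study. The members and the lists were chosen with earlier results of these data known. The genes named are all members, *Smad2* and *Smad3*, every gene of a list past the thresholds in any comparison except 1 that is not reported here, the 5 genes most like *Cyp17a1* by Pearson r, and markers. Others (*Star*, *Cyp11a1*, *Hsd11b2*, *Cyp1b1*, *Elovl2*, *Plin2*) were named after their values were seen. Identifiers were matched to 16697 symbols, and positions are from GENCODE M21 (GRCm38), not the authors' build.

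Control + vehicle and control + A83-01 samples share the numbers 367, 368 and 395 in their descriptions. They deviated together (r of 0.354 to 0.423 for the same number), so the replicate block pairs them. Control + A83-01 replicate 4 has no partner, so in the block it does not inform the difference for A83-01 in control organoids. The reported fits and their p-values left this pairing out, and the block was run only as an alternative. *Smad2/3* cKO samples of the same replicate number were not taken as paired (mean r of 0.130 with A83-01 and 0.0564 with control + vehicle). The number 367 is also that of cKO replicate 1, so it occurs in both genotypes, and 369 is shared by cKO replicate 2 and *Smad2/3* cKO + A83-01 replicate 1. What the numbers identify is not given in the sources used here. The labels speak of 4 mice per genotype, and where samples were not from separate mice the p-values measure only the spread between samples. Alternatives were pseudocounts of 0.1 and 10, no filter, a minimum mean of 50, quantile and median ratio normalization, no trend, all 4 groups in the fit, the replicate block, the number series (below 390 or not) and leaving out each sample.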

Additional observations from a re-analysis of the deposited data

Results flagged for a closer look

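Among the 10 genes in the groups of 4 samples, 30 sets of values that were not all equal were tested for a sample standing apart by Dixon's ratio at its 95% critical value, and 1 was found. *Hsd17b7* in control + A83-01 replicate 4 was 865, whereas the other 3 samples of that group were 1418 to 1480. Chance gives about 1 such sample in 20 sets. The control + vehicle samples of the same gene ran from 870 to 1541.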

How the results depend on the processing

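The count of tested enzymes past the thresholds in *Smad2/3* cKO against control + vehicle was 0 as reported. It was 1, *Hsd17b11*, with all 4 groups in the fit, with the number series as a covariate and without *Smad2/3* cKO replicate 3, so that leaving out a sample gave 0 to 1. In the other 4 comparisons it was 0 under every alternative run. With the replicate block it was 0 in all 5 comparisons. The *Hsd17b11* difference was 0.99 to 1.36 with a sample left out (adjusted p of 0.00522 to 0.0570) and 1.15 to 1.26 otherwise (0.00319 to 0.0422). The genotype difference in the A83-01 effect on *Hsd17b2*, -0.56 and not called, changed sign with the number series as a covariate (0.31), and no other log2 difference recomputed for a member or list gene reversed. The *Cyp17a1* difference between the cKO groups was 0.20 to 0.92 and that between the A83-01 groups 2.05 to 2.68 with a sample left out. Of 303 recomputed log2 differences of list genes, 251 kept their call and 52 lost it, *Hsd11b1*, *Akr1c18*, *Stard3* and *Acadsb* losing none. The replicate block, where numbers did not pair the samples, lost the cKO calls of *Cyp21a1*, *H6pd*, *Akr1c13*, *Acaa1b*, *Dgat2* and *Cidea* and left 3 of 6 steroid genes. For A83-01 in control organoids the steroid genes called numbered 3 as reported, 5 with all 4 groups in the fit and 6 with the number series. The causes were not tested. Low values limit *Hsd17b1* and *Cyp17a1*.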

Other observations

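Some enzymes differed between the number series of the sample descriptions within groups. *Hsd17b2* had means of 65.2 below 390 and 166 at or above it in control + A83-01, and of 37.5 and 132 in *Smad2/3* cKO, against 31.2 and 40.0 in control + vehicle. *Hsd17b11* went the other way, with 1203 and 772 in control + A83-01 and 2088 and 1238 in *Smad2/3* cKO, against 791 and 593 in control + vehicle. *Srd5a1* was 6279 below 390 and 9619 at or above it in control + A83-01 and 5424 and 8652 in *Smad2/3* cKO, while in control + vehicle it was 7018 below 390 and 5138 at or above it. Each mean is over 2 samples, except that 1 control + vehicle sample was at or above 390, no test was run, and what the numbers stand for is not given in the sources used here.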
